A study of Mus musculus with 48 samples.

Results

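Gip, Cck and Sct are the genes of 3 peptide hormones made by enteroendocrine cells of the upper small intestine. They were chosen by name, as 3 of the 53465 genes counted in sorted mouse enteroendocrine cells, and each was followed through 48 libraries from 17 mice. All mice carried Neurod1-cre and an eYFP reporter, so that the sorted cells were those in which the Neurod1 promoter had driven Cre, a mixture of enteroendocrine cell types rather than K, I or S cells alone. The groups were VSG (vertical sleeve gastrectomy, removal of most of the stomach), S_al (sham surgery with free access to food) and S_wm (sham surgery with food restricted so that body weight followed that of the VSG mice). All mice were lean males on a C57BL6 background, about 20 weeks old when put on liquid diet before surgery. They returned to chow after surgery and were taken 6 weeks after it. Tissue was taken after an overnight fast and about 15 min after a glucose gavage of 3 g/kg. The VSG mice were also given vitamin B12 each week. Cells came from the first 5 cm of the small intestine (duodenum), its last 15 cm (ileum) and the colon with rectum (colon), and each region had 5 S_al, 5 S_wm and 6 VSG libraries. The regions of 15 mice were all sampled, while S_al mouse 17 had only a duodenum library and S_al mouse 24 only ileum and colon libraries.

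GIP is the incretin of K cells and raises glucose-dependent insulin secretion after a meal. CCK, from I cells, is released by fat and protein, contracts the gallbladder, drives pancreatic enzyme secretion and promotes satiety. Secretin, from S cells, is released by acid in the duodenum and drives bicarbonate secretion from the pancreas and bile ducts. Each hormone is cut from a precursor by prohormone convertases in secretory granules, and a single enteroendocrine cell can make more than 1 of them.

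On GRCm38, Gip (ENSMUSG00000014351) spans bases 96024545 to 96030831 of chromosome 11 on the plus strand. Cck (ENSMUSG00000032532) spans 121489824 to 121495694 of chromosome 9 and Sct (ENSMUSG00000038580) 141278330 to 141279133 of chromosome 7, both on the minus strand. All 3 are protein coding genes, and none overlaps another annotated gene, so that their counts do not depend on how reads of a second gene were assigned. The annotated exons cover 687 bases in Gip, 1305 in Cck and 645 in Sct.

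The bases just before the start of each gene are shown as a description, and their part in the regional levels was not tested. They are RefSeq promoter sequences of GRCm38.p6, ending before the first annotated transcript start, with capitals marking GATAA (the core bound by GATA factors), CAGCTG and CAGATG (E-boxes, the core bound by bHLH factors such as NeuroD1) and TGACG (part of a cAMP response element), each searched on both strands.
Gip, chr11:96024295-96024531, plus strand: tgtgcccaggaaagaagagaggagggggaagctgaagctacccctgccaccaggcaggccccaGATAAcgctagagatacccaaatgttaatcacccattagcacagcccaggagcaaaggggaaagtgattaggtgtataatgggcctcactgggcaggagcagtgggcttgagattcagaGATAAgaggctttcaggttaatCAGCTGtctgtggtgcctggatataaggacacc
Cck, chr9:121495695-121495944, minus strand: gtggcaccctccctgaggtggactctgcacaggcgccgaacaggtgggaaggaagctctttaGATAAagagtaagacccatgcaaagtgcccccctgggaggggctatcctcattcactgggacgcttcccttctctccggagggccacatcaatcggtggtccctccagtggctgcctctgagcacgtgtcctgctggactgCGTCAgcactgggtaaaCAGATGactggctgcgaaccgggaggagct
Sct, chr7:141279175-141279383, minus strand: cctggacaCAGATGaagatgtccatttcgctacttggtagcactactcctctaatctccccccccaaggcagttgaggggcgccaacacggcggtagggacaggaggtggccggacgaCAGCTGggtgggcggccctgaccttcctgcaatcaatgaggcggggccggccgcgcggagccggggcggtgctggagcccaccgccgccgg
The Gip stretch held the GATA core at 2 places, 187 and 68 bases before the start, and the first E-box at 46. The Cck stretch held the GATA core 188 bases before the start, the cAMP element on the opposite strand at 47 and the second E-box at 30. The Sct stretch held the second E-box at 242 and the first at 132, and no GATA core. The core bound by CDX factors, TTTATG, was in none of the 3 stretches. These letters are common: among 32851 mouse promoters trimmed to the length of the Gip stretch, 21.9% held the GATA core and 12.2% the first E-box, and at the length of the Cck stretch 22.6% held the GATA core, 14.4% the second E-box and 17.8% the cAMP element. At the length of the Sct stretch, 12.4% held the second E-box and 10.8% the first, and TTTATG was in 10.4%, 10.8% and 9.1% of promoters at the 3 lengths. The bases G and C made up 52.3% of the Gip stretch, 60.0% of the Cck stretch and 67.5% of the Sct stretch, a higher share than in 50.1%, 72.1% and 87.8% of promoters of the same lengths. No library measured binding or activity at these stretches.

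The libraries held 4648651 to 17182463 counts each (median 6713018). Levels are given as CPM (counts per 1000000 counts) after TMM scaling, which adjusts each library's size for its overall composition. Tests across genes used edgeR's quasi-likelihood fit over the 15126 genes that passed its filter on low counts, with Benjamini-Hochberg adjustment at 0.05, and all 3 genes passed that filter. The summed level of 8 enteroendocrine markers, Chga and Neurod1 among them, was 33747 to 82645 CPM in the ileum and 28962 to 99069 in the colon, and enterocyte markers summed to 4088 to 15539 and 277 to 720 CPM there. Chga and Chgb made up most of that enteroendocrine sum, and single markers differed by region: 5 of the 8 were lower in the ileum than the duodenum and 5 were lower (1 higher) in the colon than the duodenum, with median log2 fold changes of -0.53 and -1.49. Over all genes tested, 33.8% and 55% passed in the same contrasts, with medians of 0.005 and -0.015. Scg2, which encodes a granule protein, was at 1092 ± 269, 412 ± 127 and 31.6 ± 15.3 CPM in duodenum, ileum and colon (SD, n = 16), and Neurod1 at 660 ± 181, 412 ± 122 and 255 ± 65.1 CPM. Their part in the regional differences of Gip, Cck and Sct was not tested. In the duodenum 15 libraries had 36065 to 72360 CPM of enteroendocrine and 5072 to 13381 CPM of enterocyte markers. The remaining duodenum library, of S_wm mouse 27, stood apart with 11442 CPM of enteroendocrine and 42650 CPM of enterocyte markers, and its values are named where they set a range or a mean. For S_al mouse 12, the sample codes and the tissue labels of 2 libraries name ileum and colon the opposite way round. The ileum markers Fabp6 and Slc10a2 summed to 27.8 CPM in its library labelled colon and 1054 CPM in that labelled ileum (7.57 to 44.6 and 39.4 to 601 CPM in the other mice), and the tissue labels were used.

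Gip was the leading peptide gene of the duodenum. It took 1.95% ± 0.748 (SD, n = 16) of all duodenal, 0.456% ± 0.204 of ileal and 0.00342% ± 0.00317 of colonic counts. Among the counts of 13 gut peptide genes, Gip held 59.5% ± 7.39 of duodenal, 27.4% ± 10.3 of ileal and 1.31% ± 0.956 of colonic counts (n = 16 each).

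In the duodenum, the S_al libraries of mice 12, 13, 17, 19 and 32 had 12021, 11555, 14909, 15142 and 18373 CPM of Gip. The S_wm libraries of mice 16, 21, 27, 29 and 31 had 22686, 9008, 8744, 29103 and 28865 CPM. The 6 VSG libraries ran from 13535 to 26187 CPM with a median of 21485. The S_wm group was the most spread, with its lowest pair of libraries under every S_al value and its highest pair over every VSG value, and the groups overlapped.

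In the ileum, Gip was at 739, 1510, 3452, 7027 and 4365 CPM in S_al mice 12, 13, 19, 24 and 32. It was at 6326, 2633, 5103, 4645 and 6993 CPM in S_wm mice 16, 21, 27, 29 and 31. The VSG libraries ran from 2010 to 8043 CPM with a median of 5710. The lowest 2 values of the ileum were both S_al, the highest 2 both VSG, and the groups overlapped. No ileum library reached the lowest duodenum library, and Gip was lower in the ileum than in the duodenum in 15 of 15 mice, by 1.71-fold to 16.3-fold with a median of 4.21-fold.

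Colonic Gip was low but present in every library, with 30 to 728 counts. S_al mice 12, 13, 19, 24 and 32 had 41.4, 7.96, 6.05, 99.0 and 31.7 CPM, and S_wm mice 16, 21, 27, 29 and 31 had 8.87, 83.05, 12.3, 14.7 and 45.2 CPM. The VSG libraries ran from 6.29 to 75.8 CPM with a median of 18.9. Each group held libraries near the bottom and near the top of this range, and the SD was 101% of the mean in S_al, 96.4% in S_wm and 89.1% in VSG, against 19.1%, 51.8% and 21.7% in the duodenum. Libraries were pooled for sequencing, and reads that carry a wrong index would bring Gip counts from duodenum libraries into colon libraries. The Gip counts of a colon library were 0.0168% to 0.287% of those in all libraries that share 1 of its 2 indexes, and Ghrl, which is also high in the duodenum, stood at 0.0121% to 0.195%. Across the 16 colon libraries, Spearman's rho of Gip counts with the Gip counts of libraries sharing the first index was 0.29 and with those sharing the second index -0.28, given as a description. Whether wrong indexes add to the lowest colonic values was not tested.

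Cck took 0.388% ± 0.132 (SD, n = 16) of all duodenal, 0.0404% ± 0.016 of ileal and 0.00216% ± 0.000937 of colonic counts. Its share of the counts of the 13 peptide genes was 12.1% ± 3.26, 2.46% ± 0.682 and 0.844% ± 0.224 along the same order.

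In the duodenum, S_al mice 12, 13, 17, 19 and 32 had 3614, 2807, 2569, 3738 and 3069 CPM of Cck. The S_wm libraries of mice 16, 21, 27, 29 and 31 had 5373, 3972, 1093, 5188 and 4368 CPM, and the VSG libraries ran from 2446 to 5672 CPM with a median of 3874. Apart from mouse 27, the lowest value of the region, every S_wm library lay above every S_al library. With mouse 27 kept, the log2 fold change of Cck between S_wm and S_al was 0.34 (95% interval -0.40 to 1.08, edgeR adjusted p = 0.9985). With the second library index as a covariate it was -0.085. How many of all genes separate in this way was not counted. VSG libraries lay both below and above all S_al libraries.

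In the ileum, Cck was at 170, 243, 317, 558 and 187 CPM in S_al mice 12, 13, 19, 24 and 32. S_wm mice 16, 21, 27, 29 and 31 had 288, 227, 434, 678 and 507 CPM, and the VSG libraries ran from 396 to 679 CPM with a median of 485. Of the S_al libraries only that of mouse 24 reached the VSG range. Colonic Cck was at 26.9, 11.9, 20.9, 39.0 and 14.7 CPM in S_al mice 12, 13, 19, 24 and 32, at 16.1, 29.6, 5.37, 34.6 and 24.6 CPM in S_wm mice 16, 21, 27, 29 and 31, and from 9.08 to 29.7 CPM with a median of 21.9 in VSG mice. The regions did not overlap: the lowest duodenum library (1093 CPM) was above the highest ileum library (679 CPM), and the lowest ileum library was above the highest colon library (39.0 CPM). How many of all genes are without such overlap was not counted. Within mice the fall was 2.52-fold to 21.3-fold from duodenum to ileum and 6.30-fold to 80.8-fold from ileum to colon.

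Sct was less steep than both along the small intestine in its values, and its duodenal and ileal libraries overlapped. It took 0.160% ± 0.052 (SD, n = 16) of all duodenal, 0.127% ± 0.0469 of ileal and 0.0371% ± 0.0134 of colonic counts. Of the counts of the 13 peptide genes it held 5.02% ± 1.44, 7.82% ± 1.58 and 15.8% ± 5.35 along the same order, so that its share among peptide genes was largest where its level was lowest.

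In the duodenum, S_al mice 12, 13, 17, 19 and 32 had 1737, 1276, 1085, 1442 and 1593 CPM of Sct. S_wm mice 16, 21, 27, 29 and 31 had 1735, 1428, 371, 1819 and 1529 CPM, and the VSG libraries ran from 1203 to 2440 CPM with a median of 1469. The library of mouse 27 was again the lowest of the region, and the highest 2 were VSG libraries. In the ileum, S_al mice 12, 13, 19, 24 and 32 had 777, 570, 906, 1231 and 1076 CPM. S_wm mice 16, 21, 27, 29 and 31 had 1189, 1379, 1058, 2249 and 1806 CPM, and VSG libraries ran from 963 to 2906 CPM with a median of 1312. The lowest 3 ileal values were S_al, and the groups overlapped.

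In the colon, Sct was at 741, 336, 372, 443 and 322 CPM in S_al mice 12, 13, 19, 24 and 32. S_wm mice 16, 21, 27, 29 and 31 had 257, 477, 285, 174 and 503.1 CPM, and VSG libraries ran from 209 to 438 CPM with a median of 369. Only mouse 12 reached 741 CPM, a level inside the ileal range. Sct was lower in the ileum than in the duodenum in 10 of 15 mice, and its colonic level was below its ileal level in 16 of 16 mice, by 1.05-fold to 13-fold.

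**Figure D1:**
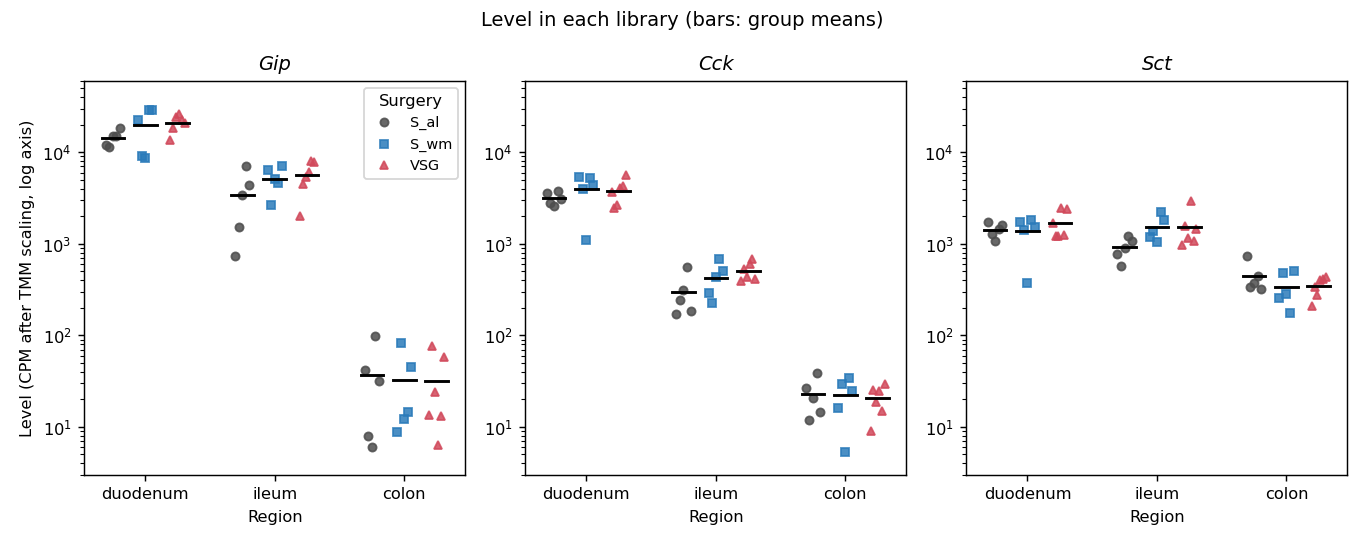
Level of Gip, Cck and Sct in each of the 48 libraries, in CPM after TMM scaling on a log axis, by region and surgery group, with a bar at each group mean. Gip and Cck step down from duodenum to ileum to colon without overlap between regions, while Sct runs from 371 to 2440 CPM (duodenum), 570 to 2906 (ileum) and 174 to 741 (colon). The share of all genes without such overlap was not counted.

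Per kilobase of exon, a scale for comparing genes of unlike length, the order of the 3 genes changed along the gut. The length used was the union of all annotated exons, which can differ from that of the transcript made. In the duodenum Gip was at 26914 CPM per kb, Cck at 2806 and Sct at 2343. Gip was above both others in 16 of 16 libraries, and Cck was above Sct in 14 of 16, with a median ratio of 1.18. In the ileum Gip was at 6962 CPM per kb, Sct at 2073 and Cck at 320, with Gip above Sct in 15 and Sct above Cck in 16 of 16 libraries. In the colon Sct, at 579 CPM per kb, was above Gip (49.2) and Cck (16.6) in 16 of 16 libraries, and Gip was above Cck in 13. The neighbours in these orders whose libraries fell on both sides were Cck and Sct in the duodenum, Gip and Sct in the ileum and Gip and Cck in the colon. The Cck counts of a colon library were 0.0495% to 0.742% of those in all libraries sharing an index with it. Their Spearman's rho was -0.16 with counts of libraries sharing the first index and -0.51 for the second. Whether wrong indexes bear on the colonic order of Gip and Cck was not tested.

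Differences between regions were tested as averages over the 3 surgery groups. The log2 fold change of Gip was -1.97 between duodenum and ileum (SE 0.351, edgeR adjusted p = 1.85e-05, 3.92-fold lower), -9.06 between duodenum and colon (SE 0.489, adjusted p = 4.71e-20, 533-fold lower) and -7.09 between ileum and colon (SE 0.448, adjusted p = 1.77e-17). For Cck the same contrasts gave -3.18 (SE 0.225, edgeR adjusted p = 1.92e-15, 9.07-fold lower), -7.38 (SE 0.278, adjusted p = 5.76e-26, 167-fold lower) and -4.2 (SE 0.240, adjusted p = 2.1e-19). For Sct the log2 fold change was -2.0 between duodenum and colon (SE 0.187, edgeR adjusted p = 8.9e-13) and -1.79 between ileum and colon (SE 0.186, adjusted p = 2.97e-11). Between duodenum and ileum its log2 fold change was -0.21 (SE 0.180, 95% interval -0.58 to 0.15, edgeR adjusted p = 0.392), an interval that leaves room for a fall but does not show that the levels are equal. Thus 2 of 3 genes passed the test from duodenum to ileum and 3 of 3 in both contrasts with the colon. Over all genes tested, 33.8% passed from duodenum to ileum, 55% from duodenum to colon and 49.2% from ileum to colon, so that a difference between regions is common. The share of genes whose libraries do not overlap between regions was not counted. In bulk RNA of sorted cells, fewer cells of a type and less RNA per cell cannot be told apart.

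The second library index followed the region closely: 12 of 16 duodenum libraries carried D502, which no other region had. Within the duodenum it also followed surgery. D501 was carried by S_al mice 12, 13 and 32 and S_wm mouse 27. All VSG libraries and the remaining S_al and S_wm libraries carried D502. The median of duodenal Gip was 11788 CPM with D501 and 21485 CPM with D502. With that index as a covariate, the log2 fold change of Gip from duodenum to ileum was -1.40 and no longer past the threshold (edgeR adjusted p = 0.199), that of Sct was 0.43 (adjusted p = 0.543) and that of Sct from duodenum to colon was -1.10 (adjusted p = 0.0449). Within D501, the only index shared by duodenum and ileum, the 4 duodenum libraries had 8744 to 18373 CPM of Gip and the 7 ileum libraries 2633 to 7027, without overlap. For Cck these ranges were 1093 to 3614 and 187 to 606 CPM, and for Sct 371 to 1737 and 1076 to 2906 CPM. The lower ends in the duodenum are all mouse 27, and the remaining 3 duodenum libraries had 11555 to 18373 CPM of Gip, 2807 to 3614 of Cck and 1276 to 1737 of Sct. Within D503, 8 ileum and 4 colon libraries had 1510 to 8043 and 13.4 to 58.1 CPM of Gip, 243 to 679 and 9.08 to 29.7 CPM of Cck, and 570 to 2249 and 209 to 503.1 CPM of Sct.

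Ratios between the genes compare them within the same library, free of its scaling. On the CPM scale (with 0.5 added), the log2 ratio of Cck to Gip was -2.32 ± 0.55 (SD, n = 15 mice with both regions) in the duodenum and -3.40 ± 0.72 in the ileum, lower in the ileum in 15 of 15 mice. The mean paired difference was -1.08 ± 0.82 (SD, exact paired permutation test, two-sided, adjusted p = 6.1e-05 over 5 tests). The log2 ratio of Sct to Gip rose by 1.93 ± 0.62 from duodenum to ileum, and that of Sct to Cck by 3.01 ± 0.51, each in 15 of 15 mice (exact paired permutation test, adjusted p = 6.1e-05, the smallest that 15 mice allow). From ileum to colon, the log2 ratio of Sct to Cck rose by a further 2.45 ± 0.96 in 16 of 16 mice (exact paired permutation test, adjusted p = 6.1e-05). Each step therefore shifted the balance towards Sct and, between duodenum and ileum, shifted it from Cck towards Gip.

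**Figure D2:**
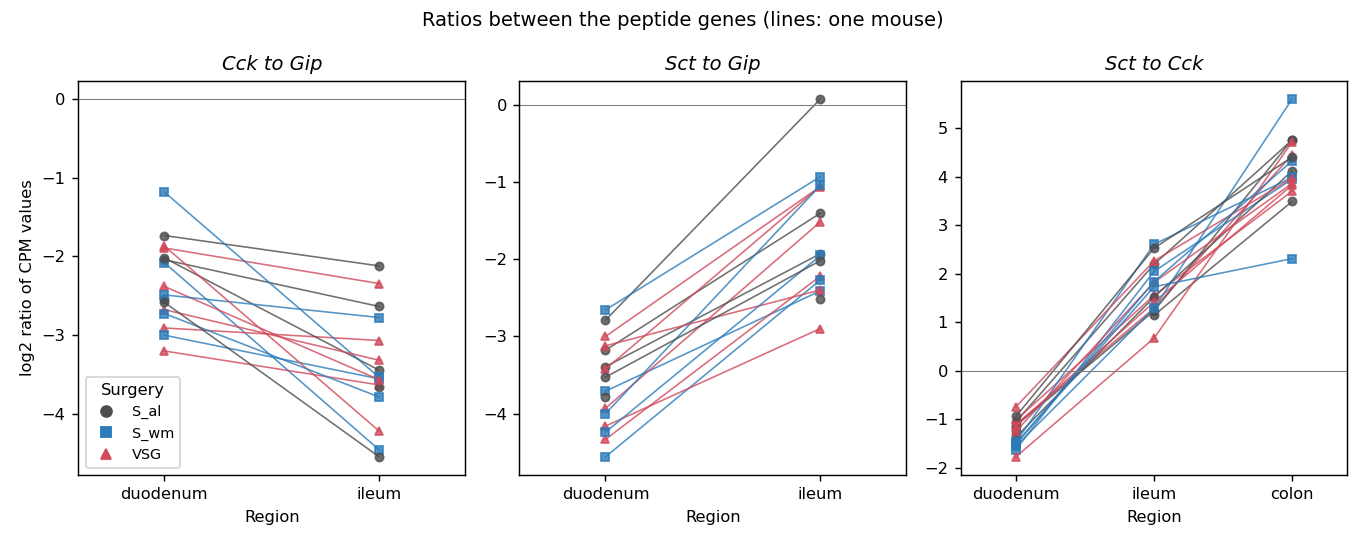
Log2 ratios of CPM values for Cck to Gip, Sct to Gip and Sct to Cck by region, with a line for each mouse and marks for the surgery group. Ratios to Gip are not drawn for the colon, where Gip counts are low; Sct to Cck rises from about -1.28 in the duodenum to 1.73 in the ileum and 4.18 in the colon, the means over the 15 mice with a duodenum library and both others.

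Surgery groups were then compared. None of the 3 genes passed the threshold in any of 12 contrasts between surgery groups with edgeR, or with DESeq2, and 3 of the 36 values had an unadjusted p under 0.05. Across all genes tested, few passed: 0% between VSG and S_al averaged over regions or in any region, and between VSG and S_wm 0.245% averaged over regions and 0.225%, 0.0463% and 0.0595% within duodenum, ileum and colon. Between S_wm and S_al, 0.0529% passed averaged over regions and 0%, 0% and 0.0132% within duodenum, ileum and colon. At 0 genes called between VSG and S_al averaged over regions, 837 genes had an unadjusted p under 0.05 and DESeq2 called 26. In the same contrast within the duodenum, ileum and colon, 370, 932 and 950 genes had an unadjusted p under 0.05, and DESeq2 called 0, 5 and 0. Between S_wm and S_al, 990 duodenal and 1188 ileal genes had one, and DESeq2 called 3 and 6. Between VSG and S_wm, DESeq2 called 102 genes against 37 with edgeR averaged over regions, 216 against 34 in the duodenum, 21 against 7 in the ileum and 15 against 9 in the colon. Of the 34 duodenal genes, 32 were lower in VSG. The duodenal S_wm group holds the library of mouse 27, which was high in enterocyte markers, and its part in these calls was not tested.

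Averaged over the 3 regions, the log2 fold change between VSG and S_al was 0.35 for Gip (SE 0.338, 95% interval -0.33 to 1.03), 0.31 for Cck (SE 0.208, interval -0.11 to 0.73) and 0.21 for Sct (SE 0.178, interval -0.15 to 0.57), with edgeR adjusted p from 0.996 to 0.998. Single mice moved these values: that of Gip was 0.75 without S_al mouse 24 and 0.175 without S_al mouse 13, that of Cck 0.52 without mouse 24, and that of Sct 0.05 without VSG mouse 25. Between VSG and S_wm these values were 0.06, 0.03 and 0.10, and between S_wm and S_al 0.29, 0.28 and 0.11, again with no gene past the threshold. The intervals of Gip, the widest of the 3, reached 0.74 between VSG and S_wm and 1.0 between S_wm and S_al. The fit behind these means over regions had no term for the mouse. Libraries of the same mouse counted as separate there, which can make the intervals too narrow. With the mouse as a random block in limma voom, Gip, Cck and Sct between VSG and S_al were 0.561, 0.338 and 0.185.

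In the duodenum, the means of Gip were 14400 ± 2755 CPM in S_al (SD, n = 5), 19681 ± 10194 in S_wm (n = 5) and 20906 ± 4534 in VSG (n = 6). The log2 fold change between VSG and S_al was 0.54 (95% interval -0.64 to 1.71, edgeR adjusted p = 1). Cck and Sct had log2 fold changes of 0.27 (interval -0.45 to 0.98) and 0.25 (interval -0.37 to 0.87) in the same contrast. With the second index as a covariate, those of Cck and Sct were -0.209 and -0.112. The duodenal VSG libraries all carried D502 and the S_al libraries D501 or D502, so index and surgery cannot be fully told apart there. Without the library of mouse 27, the S_wm mean was 22415 ± 9419 CPM for Gip (SD, n = 4), 4725 ± 666 in place of 3999 ± 1723 for Cck and 1627 ± 181 in place of 1376 ± 583 for Sct, and the log2 fold change of Sct between S_wm and S_al went from -0.05 to 0.19 (adjusted p = 1).

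In the ileum, all 3 genes had their lowest mean in S_al. Gip was at 3418 ± 2487 CPM in S_al, 5140 ± 1686 in S_wm and 5621 ± 2233 in VSG, Cck at 295 ± 158, 427 ± 180 and 511 ± 115, and Sct at 912 ± 257, 1536 ± 489 and 1524 ± 716 (SD, n = 5, 5 and 6). Between VSG and S_al, the log2 fold changes were 0.72 for Gip (SE 0.585, edgeR adjusted p = 0.959), 0.79 for Cck (SE 0.359, unadjusted p = 0.032, adjusted p = 0.768) and 0.74 for Sct (SE 0.312, unadjusted p = 0.0218, adjusted p = 0.744). Between S_wm and S_al they were 0.59, 0.53 and 0.75, the last with an unadjusted p of 0.0245 and an edgeR adjusted p of 0.592. The 2 contrasts share the S_al libraries. The median log2 fold change of the 8 enteroendocrine markers in the ileum was 0.42 between VSG and S_al and 0.40 between S_wm and S_al, against 0.007 and -0.003 over all genes tested, and no marker passed the threshold. In the same contrasts, 4 Paneth cell markers had medians of -1.38 and -1.22 (3 of 4 with an unadjusted p under 0.05 in each, 0 past the threshold), with summed levels of 1621 to 11051 CPM in S_al, 1659 to 2648 in S_wm and 1051 to 3353 in VSG. Markers of colonocytes had medians of -1.12 and -1.16, and those of enterocytes -0.11 and 0.36. Of the colonocyte markers, Aqp8 and Car1 were near the floor in the ileum, at 0.104 ± 0.192 and 1.5 ± 3.27 CPM (SD, n = 16). The part of these markers in the ileal values was not tested. Without S_al mouse 24, the log2 fold change of ileal Gip between VSG and S_al was 1.16, without S_al mouse 12 it was 0.46, and that of Sct was 0.45 without VSG mouse 25.

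In the colon, the log2 fold changes between VSG and S_al were -0.21 for Gip, -0.14 for Cck and -0.36 for Sct, with 95% intervals of -1.41 to 0.99, -0.89 to 0.61 and -0.98 to 0.26. The interaction of surgery and region, a joint test of whether the surgery effect differs between regions, had an edgeR adjusted p of 1 for each gene, with an unadjusted p of 0.817 for Gip, 0.488 for Cck and 0.0828 for Sct, and 0% of all genes passed it (741 had an unadjusted p under 0.05).

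**Figure D3:**
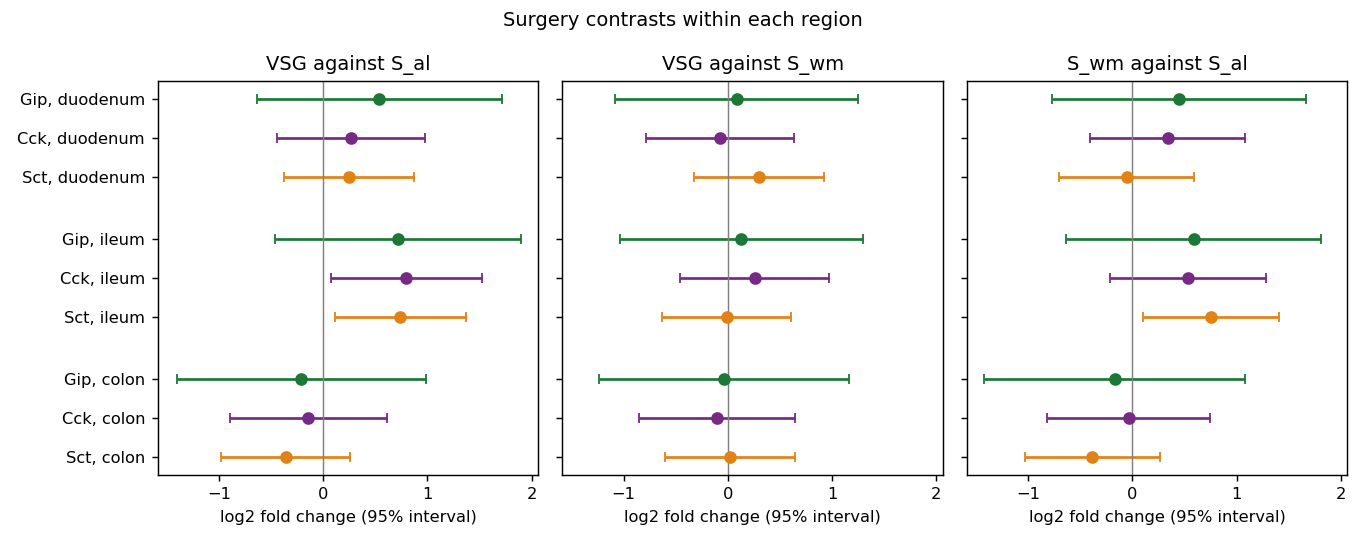
Log2 fold changes of Gip, Cck and Sct between surgery groups within each region, with 95% intervals from the edgeR fit, for VSG against S_al, VSG against S_wm and S_wm against S_al. Values in the ileum lie above 0 in both contrasts with S_al, 3 of their 6 intervals exclude 0 before adjustment, and no value is past the threshold after it.

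Ratios between the genes did not pass the threshold between surgery groups either, in any of 21 exact permutation tests (two-sided). The lowest p was that of Sct to Cck in the duodenum, where the log2 ratio was -1.54 ± 0.06 in S_wm (SD, n = 5) and -1.15 ± 0.17 in S_al (n = 5), a difference of -0.39. All 5 S_wm values lay below all 5 S_al values, which gives the smallest exact permutation p that groups of 5 allow, 0.00794, and an adjusted p of 0.167 over the 21 tests. VSG mice had -1.18 ± 0.34 (n = 6), and their difference from S_wm was 0.36 (exact permutation p = 0.0476, adjusted p = 0.5). Mouse 27 did not stand apart in this ratio, and without its duodenum library the S_wm group was 4 mice. S_al mice 12, 13 and 32, with index D501, had -1.06, -1.14 and -0.95. S_al mice 17 and 19, with D502, had -1.24 and -1.37. In S_wm only mouse 27 carried D501, so index and surgery group cannot be fully told apart here.

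The spread between libraries was wide, most of all for colonic Gip. In the edgeR fit of all regions together, the biological coefficient of variation was 0.648 for Gip, 0.405 for Cck and 0.352 for Sct. The median over the genes tested was 0.278. Of the 500 genes nearest to each in mean level over all libraries, 97.8% varied less than Gip, 89.2% less than Cck and 84.2% less than Sct. By region, the SD over 16 libraries was 36.3%, 33.0% and 32.7% of the mean for Gip, Cck and Sct in the duodenum. It was 46.8%, 40.3% and 43.6% in the ileum and 89.7%, 43.0% and 36.3% in the colon.

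Mice with more Cck in the duodenum also had more Sct. After removal of the surgery group means, the log2 levels of Cck and Sct in the 16 duodenum libraries had a Pearson r of 0.93 (permutation p = 3e-05, adjusted p = 0.00108 over 36 relations) and a Spearman rho of 0.78 (permutation p = 0.00054, adjusted p = 0.0194). Without the 2 libraries farthest from the median of Cck, r was 0.79 (permutation p = 0.00087), and without the library of mouse 27 alone it was 0.76 (adjusted p = 0.0403). The relation of Cck and Sct was weaker in value in the ileum (r = 0.47, adjusted permutation p = 0.135) and colon (r = 0.38, adjusted p = 0.262), and whether r differed between regions was not tested. Gip and Cck had an r of 0.55, 0.59 and 0.53 in duodenum, ileum and colon, and Gip and Sct 0.54, 0.43 and 0.48, each with an adjusted permutation p of 0.0796 or more. In the duodenum the r of Gip with Cck was 0.20 and that with Sct 0.18 without mouse 27, so that these rest on its library.

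The same library carried the relation to marker levels. In the duodenum the r with the mean log2 level of 8 enteroendocrine markers was 0.86 for Cck and 0.84 for Sct (adjusted permutation p = 0.0179 for each), and 0.27 and 0.22 without mouse 27 (adjusted p = 0.559 and 0.662). The r with 8 enterocyte markers was -0.77 for Cck and -0.72 for Sct, and 0.06 and 0.22 without that library. In the ileum and colon no member passed with either marker list.

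Between regions of the same mouse, Gip in the duodenum and ileum had an r of 0.57 (n = 15, permutation p = 0.0262, adjusted p = 0.0857), Sct 0.54 (adjusted permutation p = 0.0992) and Cck -0.01. Cck in the duodenum and colon had an r of 0.68 (adjusted permutation p = 0.0687), which was 0.16 without mouse 27. Colonic Gip had an r of -0.16 with duodenal and 0.07 with ileal Gip. None of the 9 relations between regions passed the threshold.

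**Figure D4:**
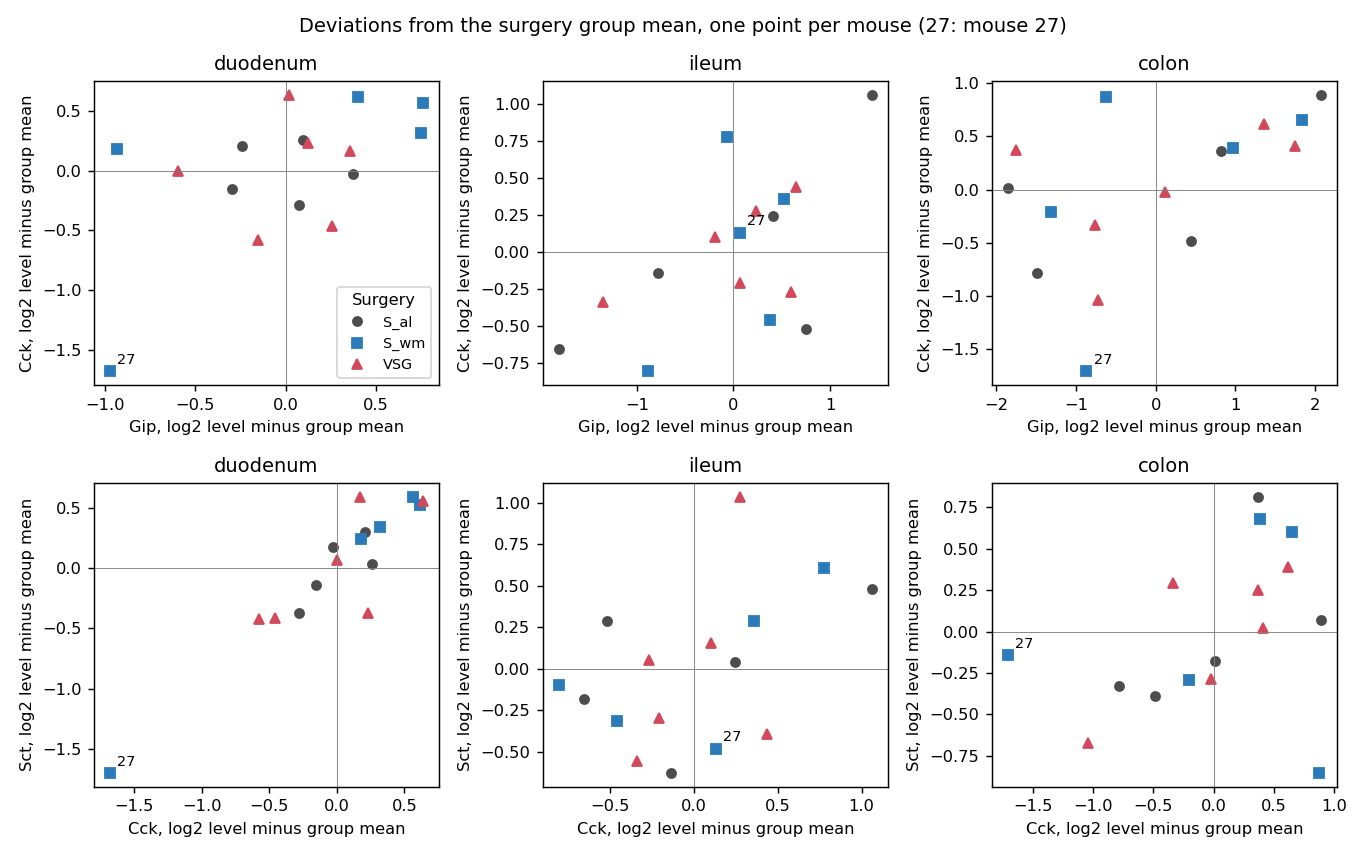
Log2 level minus the surgery group mean for Cck against Gip (top) and Sct against Cck (bottom) in duodenum, ileum and colon, with a point for each of 16 mice and mouse 27 marked. In the duodenum Cck and Sct lie along a line also when mouse 27 is set aside (r = 0.93 with it, 0.76 without), whereas Cck against Gip is scattered (0.55 and 0.20).

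The genes most like each member across all 48 libraries followed the same regional steps. Those nearest to Gip by Pearson r of log2 levels were Sphkap (0.979), Cnr1 (0.976), Tm4sf5 (0.973), Adgrg4 (0.972) and Tm4sf4 (0.971). Nearest to Cck was Ghrl (0.981), the gene of ghrelin, followed by Rbp4 (0.978), a retinol carrier, Gpx3 (0.977), Etnk1 (0.973) and C2cd5 (0.965). Nearest to Sct were Hopx (0.932), Pcsk1 (0.926), Tm4sf4 (0.921), Rcn1 (0.919) and Svip (0.911), with lower r than for the other members. These values largely reflect differences between 3 regions.

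After removal of the 9 group means, which leaves differences between libraries of the same group, the nearest genes changed. These differences can be of the mouse or of the single library. Gip was nearest to Egr2 (0.678), Cemip (0.659), Pkib (0.634), Mroh2a (0.621) and Gm32255 (0.612), and Cck to Tusc3 (0.758), Trim35 (0.758), Golga7b (0.750), Scgn (0.748) and Gfra3 (0.746). Sct was nearest to Scg5 (0.807), which encodes the granule protein 7B2, Rap1b (0.795), Hopx (0.792), Selenom (0.790) and Syp (0.777), which encodes synaptophysin. Hopx was near to Sct on both measures. Without the duodenum library of mouse 27, r fell to 0.706, 0.727, 0.709, 0.681 and 0.655 for these neighbours of Sct, and 3 of its 5 nearest genes were shared, with Nts (0.740) now the nearest. The neighbours of Cck had 0.681, 0.680, 0.669, 0.696 and 0.674 and shared 3 of 5, and those of Gip had 0.599 to 0.667 and shared 4 of 5. These were picked from 15126 genes as the highest values and carry no test.

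Other gut peptide genes went both ways. Of 10 tested, 5 were higher and 5 lower in the ileum than the duodenum (33.8% of all genes passed, 2606 higher and 2504 lower). In the colon 2 were higher and 5 lower than in the duodenum (55% of all genes, 4047 higher and 4275 lower), and 2 were higher and 6 lower than in the ileum (49.2% of all genes, 3601 higher and 3835 lower). Ghrl followed Gip and Cck, with log2 fold changes of -4.31 between duodenum and ileum and -5.28 between ileum and colon, and Ucn3, the gene of urocortin 3, had -1.67 and -5.43. Nts, the gene of neurotensin, had 3.54 and -4.0, and Insl5, a hormone gene of the distal colon, had 3.92 and 6.74. All of these passed the edgeR threshold.

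**Figure D5:**
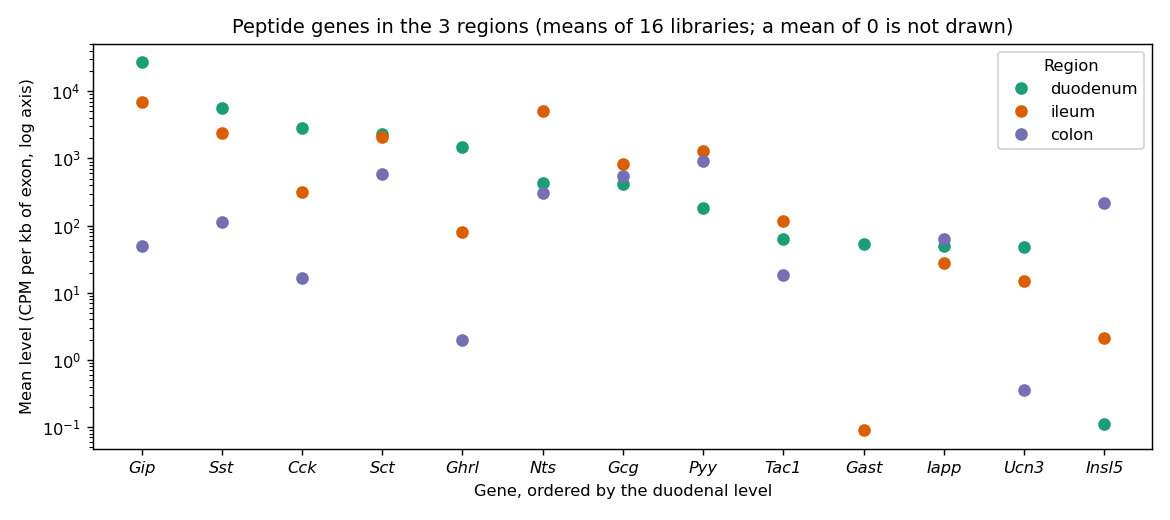
Mean level of 13 gut peptide genes in CPM per kb of exon on a log axis, with a point for each region (16 libraries), ordered by the duodenal level. Gip is the highest in the duodenum (26914) and in the ileum (6962), and Sct is next to Pyy in the colon, at 579 against 912.

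Enzymes that make the hormones also differed by region. Of 8 processing genes, 0 were higher and 6 lower in the ileum than the duodenum, and 1 was higher and 6 lower in the colon than the duodenum, beside 33.8% and 55% of all genes passing in either direction. Between ileum and colon, 2 were higher and 3 lower in the colon, with a median log2 fold change of 0.22 (49.2% of all genes passed). Pcsk1, the convertase PC1/3 that cuts the GIP and CCK precursors, was at 935 ± 227, 754 ± 133 and 113 ± 31.1 CPM in duodenum, ileum and colon (SD, n = 16), and its log2 fold change of -3.04 between duodenum and colon passed the edgeR threshold. Pcsk2, the related convertase PC2, went from 27.8 ± 8.32 CPM in the duodenum to 0.248 ± 0.394 CPM in the ileum (log2 fold change -6.85, edgeR adjusted p = 2.98e-19). Tpst1, which sulphates tyrosines such as that of CCK, had a log2 fold change of -1.88 in the same step, and Pcsk1n, the gene of the convertase inhibitor proSAAS, had 2.64 between duodenum and colon, both past the threshold. Pcsk1n and Pcsk2 overlap genes on the opposite strand, as do Ghrl, Dpp4, Pdx1 and Neurod1. The sources used here do not state whether counting used strand. Neurod1, Tpst1 and Car1 also overlap a gene on the same strand.

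Of 20 transcription factors of enteroendocrine cells, 1 was higher and 13 lower in the ileum than the duodenum, and 3 were higher and 15 lower in the colon than the duodenum, again beside 33.8% and 55% of all genes. In the colon against the ileum, 3 were higher and 13 lower, where 49.2% of all genes passed. The median log2 fold change was -0.71 in the ileum and -1.21 in the colon, each against the duodenum. In the colon against the ileum it was -0.51. Over all genes tested the medians were 0.005, -0.015 and -0.011 in the same order. Pdx1, a regulator of duodenal and pancreatic identity, was at 58.2 ± 22.7, 6.71 ± 3.40 and 1.03 ± 0.943 CPM in duodenum, ileum and colon (SD, n = 16). Gata4, a factor that binds the GATAA core printed above, was at 123 ± 22.1, 53.5 ± 13.3 and 0.815 ± 0.799 CPM. Isl1, needed for enteroendocrine subtypes, had a log2 fold change of -3.40 between duodenum and colon, past the edgeR threshold.

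Of 21 genes of nutrient sensing tested, 1 was higher and 10 lower in the ileum than the duodenum, and 2 were higher and 16 lower in the colon than the duodenum, where 33.8% and 55% of all genes passed. In the colon against the ileum 0 were higher and 19 lower, where 49.2% of all genes passed. Trpa1, an irritant-gated channel, was at 724 ± 277, 120 ± 42.0 and 0.712 ± 0.676 CPM in duodenum, ileum and colon (SD, n = 16). Cnr1, the cannabinoid receptor CB1, Fabp5, a fatty acid binding protein, and Asic5, a bile acid sensitive channel, had log2 fold changes of -7.87, -4.37 and -6.03 between duodenum and colon, all past the edgeR threshold.

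Receptors of the 3 hormones were near the floor of the sorted cells. Sctr, the secretin receptor, and Cckbr had 2 to 11 and 4 to 16 counts in the 16 libraries of a region together and did not pass the filter. Cckar, a CCK receptor, had 9 duodenal, 16 ileal and 158 colonic counts, and Gipr was at 1.63 ± 1.33, 2.69 ± 0.982 and 2.51 ± 1.32 CPM (SD, n = 16). Dpp4, the protease that inactivates GIP, was at 327 ± 133, 401 ± 112 and 75.1 ± 18.5 CPM in duodenum, ileum and colon, and its log2 fold change of -2.11 between duodenum and colon passed the edgeR threshold. Of the genes tested in these 5 lists, 0 passed the edgeR threshold between surgery groups, averaged over regions or within one.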

How the data were processed

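RNA from sorted cells of 48 mouse libraries was sequenced by the authors as single-end reads from a stranded total RNA kit, aligned to GRCm38 with STAR 2.5.1 (per the labels' processing notes) and deposited as 1 table of unnormalized counts per gene. The strand setting of the counting is not given in the sources used here. Every column was matched to a library by its title. The members and all gene lists were chosen with earlier results of these data known.

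The deposited counts were fitted with edgeR 4.0.16 under R 4.3.3 (filterByExpr over the 9 groups, TMM, 1 mean per group, robust quasi-likelihood fit, Benjamini-Hochberg adjustment at 0.05). Standard errors are the fold change over the square root of F. Levels are CPM on TMM-scaled library sizes, and per kb uses the union of GENCODE M21 exons. Log2 ratios and correlations used a pseudocount of 0.5 CPM, and exact permutation (ratios) or 100000 permutations (correlations) with scipy. List genes were named by the lowest p in the region contrasts, at most 4 per list. A shared mouse number means the same animal, so it pairs regions. Over 46 such pairs deviations from group means correlated with a median r of 0.111, and 25 pairs were over 0.1 (range -0.07 to 0.39). Surgery groups hold different mice. Samples of a group were separate mice, and no pair of 105 was a duplicate (lowest chi-square per gene 8.81). The edgeR fit was run on simulated counts in which every library was drawn independently, without effects of mouse, index or cell mixture. That run cannot check the fit for libraries that share a mouse. Alternatives were DESeq2 1.42.0, its size factors, no filter, at least 10 counts per library, limma 3.58.1 voom with a mouse block, a fixed mouse block, the second index as covariate, only the region compared, omission of each mouse and of the mouse 12 libraries, and other pseudocounts. Fits, index ranges and nearest genes without mouse 27's duodenum library, and levels on DESeq2 size factors or plain totals, were chosen after the data were seen. Peptide measurements and human samples were not analysed here. Some genes of the lists are not reported here.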

Additional observations from a re-analysis of the deposited data

Results flagged for a closer look

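Within groups of 5 or 6 libraries, Dixon's ratio was searched in 57 sets of values (levels of the 3 genes, log2 ratios and total counts), and 5 sets held a library far from the others. Chance gives such a library in about 1 of 20 sets. Sct in the duodenum of S_wm mouse 27 was at 371 CPM against 1428 to 1819 CPM in the other 4 libraries, and the same library was low in Gip and Cck and high in enterocyte markers. Sct in the ileum of VSG mouse 25 was at 2906 CPM against 963 to 1574 CPM in the other 5. Sct in the colon of S_al mouse 12 was at 741 CPM against 322 to 443 CPM in the other 4. Total counts were 17182463 in the duodenum library of S_al mouse 13, against 6200830 to 8033375 in its group, and 7421731 in the ileum library of S_wm mouse 31, against 6541470 to 6655692.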

How the results depend on the processing

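In 234 recomputed values of the 9 region contrasts, 232 kept their direction and side of the threshold. The exceptions came with the second library index as a covariate, where Gip between duodenum and ileum was -1.404 and no longer passed (adjusted p 0.199), Sct was 0.427 in place of -0.213, and the number of members past the threshold in that contrast was 1. The index follows the region and, in the duodenum, the surgery group, so its part and theirs cannot be fully told apart. With the mouse as a replicate block, Gip between duodenum and ileum was -2.17 (edgeR, fixed) or -2.106 (limma voom, random), and no call of a member changed. The 36 surgery values stayed short of the threshold in all 927 recomputed values, of which 63 changed sign. With the index covariate, Cck and Sct between VSG and S_al in the duodenum were -0.209 and -0.112, and Cck between S_wm and S_al -0.085. With the random mouse block, colonic Gip was 0.227 (VSG against S_al), 0.081 (VSG against S_wm) and 0.146 (S_wm against S_al), and Cck between VSG and S_wm was 0.058 in the duodenum and 0.014 in the colon. Without the duodenum library of mouse 27, VSG against S_wm gave -0.00866 for Gip and -0.058 for Cck averaged over regions and -0.105 for Gip in the duodenum, Sct between S_wm and S_al in the duodenum was 0.19, the ratio of Cck to Gip in that contrast 0.065, and that of Sct to Gip between VSG and S_wm -0.01. Without the ileum and colon libraries of mouse 12, Cck between S_wm and S_al in the colon was 0.038, and in the ileum the ratio of Cck to Gip (VSG against S_al) was 0.212 and that of Sct to Gip 0.108 (VSG against S_al) and 0.244 (S_wm against S_al). Without removal of surgery means, the ileal correlations of Gip with Cck (0.685) and Cck with Sct (0.622) passed (adjusted permutation p 0.0404 each). The cause of these changes was not tested.

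Omission of 1 mouse at a time turned the sign of these values, none past the threshold. Between VSG and S_al in the colon the range was -0.686 to 0.562 for Gip and -0.308 to 0.135 for Cck. Between VSG and S_wm it was -0.087 to 0.212 for Gip, -0.137 to 0.212 for Cck and -0.052 to 0.201 for Sct averaged over regions. In the duodenum it was -0.105 to 0.272 for Gip and -0.319 to 0.056 for Cck, in the ileum -0.036 to 0.279 for Gip and -0.3 to 0.167 for Sct, and in the colon -0.519 to 0.653, -0.35 to 0.105 and -0.145 to 0.208 for Gip, Cck and Sct. Between S_wm and S_al it was -0.173 to 0.19 for duodenal Sct, -0.861 to 0.603 for colonic Gip and -0.247 to 0.243 for colonic Cck. Ratios of Cck to Gip ran from -0.39 to 0.065 (S_wm against S_al) and -0.369 to 0.085 (VSG against S_wm) in the duodenum and -0.394 to 0.212 in the ileum (VSG against S_al). Ratios of Sct to Gip ran from -0.01 to 0.465 (VSG against S_wm, duodenum), and in the ileum from -0.538 to 0.108 (VSG against S_al), -0.308 to 0.072 (VSG against S_wm) and -0.402 to 0.244 (S_wm against S_al). Ratios of Sct to Cck ran from -0.108 to 0.098 (VSG against S_al, duodenum), and in the colon from -0.378 to 0.445 (VSG against S_wm) and -0.662 to 0.161 (S_wm against S_al). Colonic Gip and Cck rest on as few as 30 and 28 counts in a library. All 54 recomputed levels moved by less than 1 SD. Other surgery values kept their sign but moved by over 1.5 times: averaged over regions, Gip, Cck and Sct between VSG and S_al ran from 0.175 to 0.754, 0.217 to 0.521 and 0.054 to 0.308, and between S_wm and S_al from 0.116 to 0.695, 0.094 to 0.494 and 0.00809 to 0.242.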
